A study of Mus musculus with 13 samples.

Results

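The cadherin switch is described here across 13 mouse arrays by 10 genes: the cadherins Cdh1, Cdh2, Cdh3 and Cdh11, the transcription factors Snai1, Snai2, Zeb1, Zeb2 and Twist1, and the intermediate filament gene Vim. They were chosen by name, and all 10 were measured, each by 1 probe set, among 19937 genes in the series. A level is the log2 of the probe set intensity plus 1. A difference is the mean level of one group minus that of another, printed with its standard error (SE). A gene was called higher or lower when its limma p-value, adjusted with the Benjamini-Hochberg method over all 19937 genes, was under 0.05.

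Classical cadherins are calcium-dependent adhesion molecules that bind the same cadherin on the neighbouring cell and are tied to actin through catenins. E-cadherin (Cdh1) and P-cadherin (Cdh3) hold melanocytes to the keratinocytes around them, and a change from E-cadherin to N-cadherin (Cdh2) is known from melanoma that leaves the epidermis. SNAI, ZEB and TWIST proteins bind E-box sequences and repress or activate such genes in the epithelial-mesenchymal transition (EMT). Melanocytes come from the neural crest, and ZEB2 and SNAI2 are part of their normal lineage programme, so these factors are not foreign to the cell type.

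The series asked what holds back or permits melanoma growth under oncogenic Braf in the mouse. Sorted melanocytes, purified by flow cytometry, were of the Cdkn2a/Braf genotype at day 19, before growth arrest (2 arrays), and at day 50, after it (2 arrays), or of the Cdkn2a genotype with wild-type Braf at day 19 (2 arrays). The other 7 arrays hold tissue that was not cultured: 2 of melanoma with the Cdkn2a/Braf genotype, 2 of melanoma that also lacks Lkb1 (Cdkn2a/Braf/Lkb1), and 3 of melanocytic proliferations with the Lkb1/Braf genotype, which were pooled. Cdkn2a encodes cell cycle and Mdm2 inhibitors and Lkb1 is the kinase gene Stk11. The Braf allele is in every group except the Cdkn2a-only cells, and Cdkn2a is named in every genotype except that of the proliferations. None of the sources used here gives the Cre driver, the age of the lesions or the number of animals pooled. The labels call the samples of a group biological replicates, and groups of 2 or 3 arrays limit the precision of every value. With 2 arrays against 2, an exact permutation test cannot reach a p under 0.05, so the tests rest on the limma fit across all genes.

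Markers of other cell types differed between the groups, and the cell type labels were checked against them. The summed intensity of 12 melanocyte markers was 46146 to 51889 on the 4 day 19 arrays, 24583 to 32717 at day 50, 3494 to 3898 in the proliferations and 612 to 1114 in the melanomas. Mlana, a melanosome protein, was at 13.19 to 13.31 at day 19 and at 6.49 to 6.98 in the melanomas, so this defining marker was low in the melanoma tissue. The sum of 13 keratinocyte markers was 2340 to 3753 at day 19, 12722 to 17073 at day 50, 22909 to 25165 in the proliferations, and 1279 to 1896 in the melanomas apart from Cdkn2a/Braf replicate 2, which had 7766. The sum of 11 fibroblast markers was 1129 to 1359 at day 19, 4576 to 5331 at day 50 and 10244 to 16427 in tissue. In bulk RNA, fewer cells of a type and less RNA per cell cannot be told apart. The interquartile range of log2 levels over genes was also narrower in the proliferations (2.00 to 2.11) and at day 50 (1.93 to 1.94) than in the melanomas (2.45 to 2.89). The 2 day 50 arrays differed most from each other, with an SD of 0.703 for their log2 differences over genes against 0.271 to 0.404 in the other pairs of a group. Their endothelial sums were 3913 (replicate 1) and 1408 (replicate 2).

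**Figure D1:**
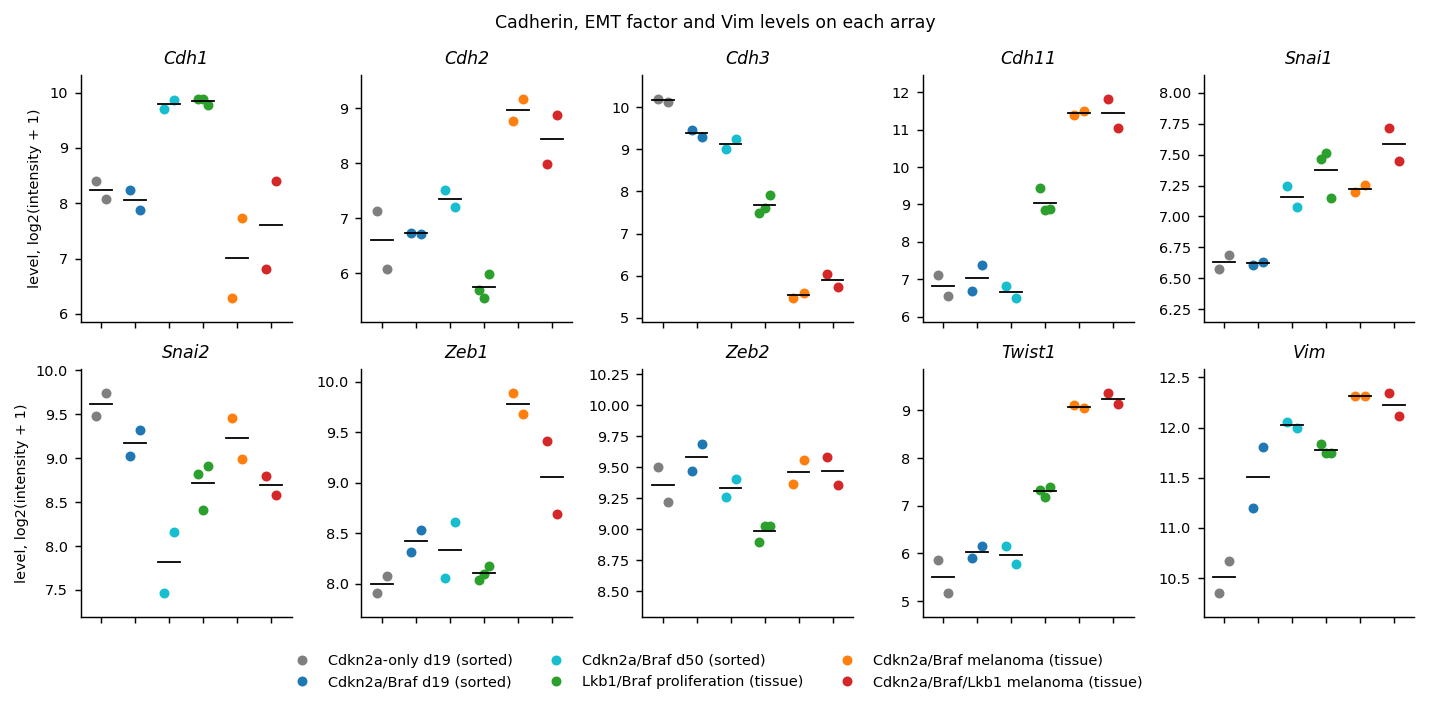
Level of each of the 10 genes, log2(intensity + 1), on each of the 13 arrays (points), with the group mean as a bar and groups told apart by colour; the vertical range differs between panels. The melanomas lie highest for Cdh2, Cdh11, Zeb1 and Twist1 and lowest for Cdh3, while Cdh1 is highest in the proliferations and at day 50.

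The 4 melanomas had less Cdh1 and Cdh3 and more Cdh2 and Cdh11 than the 3 Lkb1/Braf proliferations. Of the 10 genes 8 were called, 6 higher and 2 lower in the melanomas, where 39.0% of all genes were called, 20.3% higher and 18.7% lower, and the median difference was 0.49 against -0.03 for all genes. Both are uncultured tissue, so this comparison does not cross from sorted cells to tissue. It takes the mean of the 2 melanoma genotypes against the proliferations. Cdkn2a is named in both melanoma genotypes and not in that of the proliferations. Lesion type and Cdkn2a genotype therefore cannot be told apart here. Lkb1 is named in the genotype of the proliferations and, among the melanomas, only in Cdkn2a/Braf/Lkb1, so the comparison also mixes Lkb1 status.

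Cdh1, E-cadherin, was at 9.88, 9.89 and 9.77 in the proliferations. It was at 6.28 and 7.74 in the Cdkn2a/Braf melanomas and at 6.82 and 8.40 in the Cdkn2a/Braf/Lkb1 melanomas. Every melanoma lay below every proliferation, and replicate 2 was the higher of the pair in each melanoma genotype. Cdh1 was lower in the melanomas, with a difference of -2.54 (SE 0.38, 5.80-fold, limma adjusted p = 0.000813). The difference was -2.90 without Cdkn2a/Braf melanoma replicate 2, the melanoma with the highest keratinocyte sum, and -2.14 without Cdkn2a/Braf/Lkb1 melanoma replicate 1. Keratinocytes also express Cdh1, and over the 13 arrays its level had a Pearson r of 0.886 with the log2 keratinocyte sum, a description of arrays that share their groups. The melanoma with the most Cdh1, Cdkn2a/Braf/Lkb1 replicate 2 at 8.40, had a keratinocyte sum of 1896, against 7766 in Cdkn2a/Braf replicate 2 with Cdh1 at 7.74 and 1279 and 1371 in the other melanomas. The part of keratinocyte RNA in the Cdh1 difference was not tested.

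Cdh2, N-cadherin, was low in the proliferations at 5.71, 5.55 and 5.99. It reached 8.76 and 9.18 in the Cdkn2a/Braf melanomas and 7.99 and 8.88 in the Cdkn2a/Braf/Lkb1 melanomas. The groups did not overlap, and Cdh2 was higher in the melanomas by 2.96 (SE 0.27, 7.76-fold, limma adjusted p = 4.84e-05). Endothelial and nerve cells also express Cdh2; the 9 endothelial markers summed to 1831 to 3211 in the melanomas and 1039 to 1118 in the proliferations, and their part in the difference was not tested.

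Within each array the log2 difference of Cdh2 minus Cdh1 can be followed from group to group, although its zero point depends on the probes. It was -4.17, -4.34 and -3.78 in the proliferations, -2.18 and -2.68 at day 50, -1.50 and -1.17 in Cdkn2a/Braf cells at day 19, and -1.25 and -1.99 in Cdkn2a-only cells. In the melanomas it was 2.48 and 1.44 for Cdkn2a/Braf and 1.17 and 0.48 for Cdkn2a/Braf/Lkb1. The proliferations had the lowest and the melanomas the highest values, and the day 19 and day 50 cells lay between them.

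Cdh3, P-cadherin, ran with several pigment cell genes over the 13 arrays, but not with most of them from day 19 to day 50. It was at 10.20 and 10.13 in Cdkn2a-only cells, 9.46 and 9.28 in Cdkn2a/Braf cells at day 19, and 9.002 and 9.233 at day 50. It was at 7.48, 7.60 and 7.92 in the proliferations, 5.47 and 5.60 in Cdkn2a/Braf melanomas and 6.05 and 5.74 in Cdkn2a/Braf/Lkb1 melanomas. No neighbouring groups in that order overlapped. Cdh3 was lower in the melanomas than in the proliferations, with a difference of -1.96 (SE 0.13, 3.88-fold, limma adjusted p = 1.07e-05). The 5 genes most like it over the 13 arrays, among 7422 genes whose group means spanned at least 1 log2 unit, were Mlana (Pearson r = 0.986), Pmel (0.978), Dct (0.975), Tyrp1 (0.974) and Aff3 (0.965). The first 4 encode melanosome proteins or enzymes and are melanocyte markers, and the marker sum itself had r = 0.979 with Cdh3. These values mix sorted cells and tissue. At day 50 against day 19, 8 of 12 melanocyte markers were called lower, with a median of -1.22, where 14.5% of all genes were. Cdh3 differed there by -0.26 (SE 0.17, limma adjusted p = 0.267) and was not called.

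Cdh11, a cadherin of mesenchymal cells first described in bone-forming cells, had the widest span of the 10 genes. It was at 9.43, 8.84 and 8.88 in the proliferations, 11.39 and 11.50 in Cdkn2a/Braf melanomas and 11.83 and 11.05 in Cdkn2a/Braf/Lkb1 melanomas. On the 6 sorted arrays it lay between 6.49 and 7.39. Cdh11 was higher in the melanomas than in the proliferations by 2.39 (SE 0.25, 5.26-fold, limma adjusted p = 9.88e-05). Fibroblasts express Cdh11, and the fibroblast sum in the proliferations (13852 to 15214) lay inside the range of the melanomas (10244 to 16427). The macrophage sum was 5716 to 6719 in the proliferations and 5206 to 12161 in the melanomas, and the part of these cells was not tested. The calls of Cdh1, Cdh2, Cdh3 and Cdh11 held in 20 of 20 alternatives each, leaving out each array among them.

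**Figure D2:**
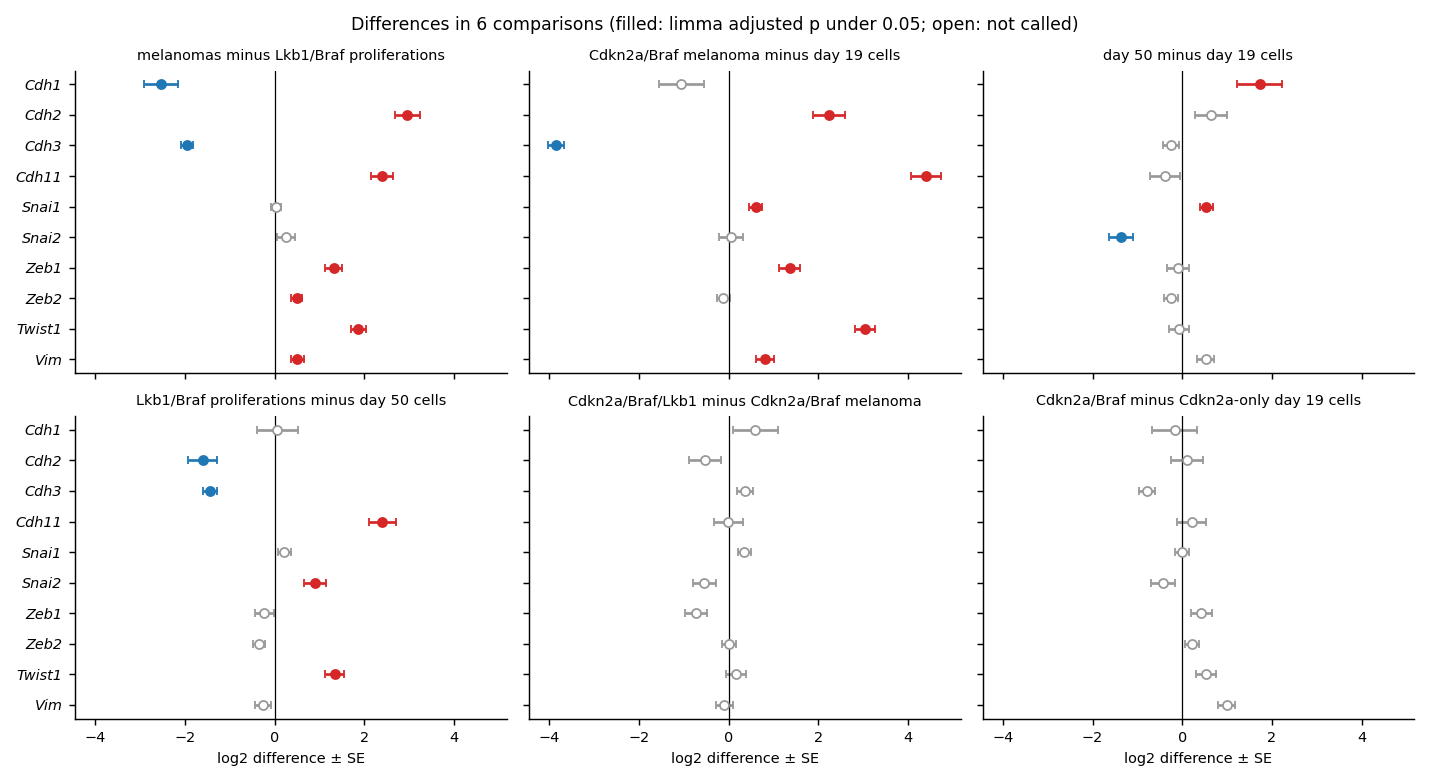
Log2 difference (points) and its SE (bars) of each gene in 6 comparisons, red where called higher, blue where called lower and open where not called. Melanomas against proliferations gave 8 calls of 10, and neither the Lkb1 nor the Braf comparison gave any.

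Among the transcription factors, Twist1 and Zeb1 were higher in the melanomas, and Snai1 and Snai2 were not called. Twist1, a basic helix-loop-helix factor of neural crest and mesoderm, was at 7.34, 7.17 and 7.38 in the proliferations. It was at 9.11, 9.05, 9.36 and 9.13 in the melanomas, which did not overlap the proliferations. The difference was 1.86 (SE 0.17, 3.64-fold, limma adjusted p = 4.4e-05). Twist1 and Cdh11 were each other's most similar gene (Pearson r = 0.988 over 13 arrays), and the next most like were Klhl6 (0.986), Slit2 (0.982), Smarca1 (0.981) and St8sia4 (0.981) for Cdh11. For Twist1 they were Klhl6 (0.983), the pericyte marker Rgs5 (0.98), Vasn (0.98) and Smarca1 (0.98). Twist1 ran opposite to Cdh3 (r = -0.981) and to the log2 melanocyte marker sum (r = -0.975). Its r was 0.898 with the log2 pericyte and smooth muscle sum, 0.857 with the macrophage sum and 0.775 with the fibroblast sum. The part of these cells in the Twist1 difference was not tested.

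Zeb1, a zinc finger repressor of Cdh1, was at 8.03, 8.10 and 8.18 in the proliferations. It was at 9.88 and 9.68 in Cdkn2a/Braf melanomas and at 9.42 and 8.69 in Cdkn2a/Braf/Lkb1 melanomas. All 4 melanomas lay above the proliferations, by 1.31 on average (SE 0.185, 2.49-fold, limma adjusted p = 0.000529). The genes most like Zeb1 were Npr2 (r = 0.968), Chst2 (0.949), the ephrin receptors Epha7 (0.944) and Epha3 (0.939), and Eng (0.936). Zeb1 had r = -0.672 with the log2 melanocyte sum and 0.512 with the pericyte and smooth muscle sum. The part of other cell types in the Zeb1 difference was not tested.

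Zeb2, the homologue of Zeb1 that normal melanocytes express, spanned 0.60 log2 units over the 6 group means, wider than in 30.5% of all genes. It was at 8.89, 9.03 and 9.03 in the proliferations and at 9.36 to 9.58 in the melanomas. It was called higher in the melanomas by 0.48 (SE 0.12, limma adjusted p = 0.00874). That call depends on the scaling of the arrays: with quantile normalization the difference was -0.07 and with each array scaled to a common interquartile range -0.11, neither of them called.

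Snai2, Slug, was at 8.82, 8.41 and 8.91 in the proliferations, 9.46 and 8.99 in Cdkn2a/Braf melanomas and 8.80 and 8.58 in Cdkn2a/Braf/Lkb1 melanomas. These groups overlapped, and the difference of 0.24 (SE 0.20, limma adjusted p = 0.353) was not called. Snai1, Snail, was at 7.46, 7.51 and 7.15 in the proliferations and at 7.20, 7.25, 7.72 and 7.45 in the melanomas, a difference of 0.03 (SE 0.12, limma adjusted p = 0.861). Snai1 had its closest matches in Inhbb (r = 0.968), the collagen genes Col3a1 (0.965) and Col1a2 (0.959), Slfn5 (0.964) and Cpxm1 (0.957), and its r with the log2 fibroblast sum, which includes both collagens, was 0.932. Over all groups its means ran from 6.62 in Cdkn2a/Braf cells at day 19 to 7.58 in Cdkn2a/Braf/Lkb1 melanoma.

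Vim, vimentin, the main intermediate filament of mesenchymal cells and melanocytes, was at 11.83, 11.75 and 11.74 in the proliferations and at 12.32, 12.32, 12.34 and 12.11 in the melanomas. It was called higher in the melanomas by 0.50 (SE 0.15, 1.41-fold, limma adjusted p = 0.0225). The call held in 9 of 20 alternatives and ended without any 1 of 6 of the 7 arrays, with adjusted p between 0.0501 and 0.0703. With a common interquartile range it turned to -0.81 (limma adjusted p = 0.00327), so the direction of Vim here rests on the scaling. Of 12 other intermediate filament genes measured, 3 rose and none fell in the melanomas, where 20.3% of all genes were called higher, so the count is near the background. The 3 were Nefm (5.20, SE 0.46) and Nefl (3.63, SE 0.59), subunits of the neurofilament, and Nes, nestin (2.57, SE 0.28).

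Promoter sequences, each 250 bases before to 50 bases after the gene start, were available for 4 of the 10 genes in the RefSeq table of build GRCm38.p6, and 3 are shown because Twist1, Vim and Snai1 differ in how far they moved. Capitals mark matches on either strand to the E-box CAGGTG or CACCTG, which SNAI and ZEB zinc fingers bind, to the TATA box TATAAA or TTTATA, and to the GC box GGGCGG or CCGCCC. Twist1 (chr12:33957421-33957720, plus strand) has 1 TATAAA starting 126 bases before the gene start and 1 CCGCCC 62 bases before it. Vim (chr2:13574061-13574360, plus strand) has 1 TATAAA 32 bases before the start. Snai1 (chr2:167537945-167538244, plus strand) has 1 CACCTG 126 bases before the start, the kind of site that Snail itself binds.
Twist1: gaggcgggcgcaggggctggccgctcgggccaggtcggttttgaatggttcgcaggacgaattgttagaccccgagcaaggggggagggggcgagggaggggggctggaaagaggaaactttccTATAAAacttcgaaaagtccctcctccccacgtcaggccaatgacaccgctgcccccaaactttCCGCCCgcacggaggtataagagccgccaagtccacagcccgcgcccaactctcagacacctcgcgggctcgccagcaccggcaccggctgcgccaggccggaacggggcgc
Vim: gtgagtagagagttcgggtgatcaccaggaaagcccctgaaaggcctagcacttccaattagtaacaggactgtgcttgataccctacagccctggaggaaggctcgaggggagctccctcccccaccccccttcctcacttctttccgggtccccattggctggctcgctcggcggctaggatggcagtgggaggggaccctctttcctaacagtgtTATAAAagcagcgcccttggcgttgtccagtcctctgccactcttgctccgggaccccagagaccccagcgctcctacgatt
Snai1: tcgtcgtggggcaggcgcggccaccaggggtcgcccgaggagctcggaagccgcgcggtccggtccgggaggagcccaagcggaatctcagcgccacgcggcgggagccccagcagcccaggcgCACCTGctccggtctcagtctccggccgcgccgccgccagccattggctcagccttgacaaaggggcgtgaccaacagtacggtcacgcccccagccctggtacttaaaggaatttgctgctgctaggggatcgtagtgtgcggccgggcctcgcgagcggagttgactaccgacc
Of 32851 promoters of that length, 20.2% hold CAGGTG or CACCTG, 13.6% the TATA box and 35.7% the GC box. The 4 Zeb2 promoters in the table hold no CAGGTG or CACCTG in these windows. A match is a run of letters and no sign that a factor was bound.

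Genes around the switch were followed as lists in the same melanoma comparison. Of 80 called genes of these lists and the miRNA precursors, 62 were also called without each of the 7 arrays in turn. In this comparison 18.7% of all genes were called lower and 20.3% higher. Of 25 epithelial genes measured 22 fell and 1 rose in the melanomas, with a median of -1.17. Among them were Dsp, which encodes desmoplakin of the desmosome (-4.33, SE 0.67), Esrp1, an epithelial splicing regulator (-4.00, SE 0.43), Rab25, an epithelial trafficking GTPase (-2.85, SE 0.23), Grhl1 (-2.84, SE 0.27) and Cldn1, a tight junction claudin (-2.83, SE 0.56). Tjp1, a tight junction scaffold, was the 1 called higher (0.78, SE 0.22), named after its value was seen; the call ended without Cdkn2a/Braf/Lkb1 replicate 1 (0.68) and without proliferation replicate 1 (0.74) or 2 (0.77), and with 2 scalings. The keratinocyte markers fell with this list, 12 of 13 called lower with a median of -3.44, and their part in it was not tested. Without Cdkn2a/Braf melanoma replicate 2 the count was again 22, and over leaving out each array in turn it was 20 to 23. With genes above the median level alone, which keeps 11 of the 25, it was 10.

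Of 22 mesenchymal genes 14 rose and none fell in the melanomas, where 20.3% of all genes were called higher and 18.7% lower. The list median was 1.05. Tnc, the matrix glycoprotein tenascin C, rose by 3.20 (SE 0.20), Fn1, fibronectin, by 2.21 (SE 0.38), Lox, a collagen cross-linking oxidase, by 2.12 (SE 0.21), Prrx1, a mesenchymal homeobox factor, by 1.73 (SE 0.21) and the receptor Pdgfrb by 1.61 (SE 0.18). With a common interquartile range 8 rose and 4 fell, and with quantile normalization 11 rose and 2 fell. Fibroblast markers moved both ways, 4 of 11 higher and 3 lower, and their part was not tested.

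TGF-beta is a ligand that induces SNAI and ZEB genes in many epithelia. Of 20 TGF-beta and BMP genes 13 were higher and 1 lower in the melanomas, with a median of 0.71. Of all genes 20.3% were called higher and 18.7% lower. The latent binding protein Ltbp1 rose by 2.03 (SE 0.29), the ligands Tgfb3 by 1.56 (SE 0.34) and Tgfb2 by 1.12 (SE 0.31), the receptor Tgfbr1 by 1.18 (SE 0.22) and the corepressor Tgif1 by 1.06 (SE 0.20). The Tgfb2 call ended without Cdkn2a/Braf replicate 1 (1.05) or proliferation replicate 1 (1.14) or 2 (1.06), and its value was 0.73 without Cdkn2a/Braf/Lkb1 replicate 1. The 1 called lower, named after its value was seen, was Bmp7 (-0.63, SE 0.19). Bmp7 was at 6.97 and 7.28 in Cdkn2a/Braf melanomas, at 8.37 and 8.30 in Cdkn2a/Braf/Lkb1 melanomas and at 8.33, 8.48 and 8.26 in the proliferations, so the low values are those of 1 melanoma genotype. Its call ended in 5 of the 7 cases of leaving out 1 array (values from -0.65 to -0.55), with median centring and with Cdkn2a/Braf/Lkb1 melanoma alone. Without proliferation replicate 1 the count was 8. Across the alternatives 5 to 15 were called higher, with 5 under quantile normalization and 7 with a common interquartile range. Of 16 other EMT and E-box factors 4 were called higher and 2 lower, a share near the 39.0% of all genes called: Id3 (1.94, SE 0.19), the E-proteins Tcf4 (1.75, SE 0.17) and Tcf12 (1.38, SE 0.18), which pair with TWIST proteins, and Foxc2 (1.58, SE 0.49) were higher, and Foxc1 (-0.97, SE 0.20) and, named after its value was seen, Sox9 (-0.83, SE 0.17) were lower. The Foxc2 call ended without any 1 of the 7 arrays (limma adjusted p 0.0563 to 0.0808, values from 1.51 to 1.69).

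Of 13 catenins and junction partners 3 were called higher and 5 lower in the melanomas, where 39.0% of all genes were called. Jup, plakoglobin, fell by 2.42 (SE 0.24), Nectin4 by 1.16 (SE 0.11) and Nectin1 by 1.01 (SE 0.14), while Vcl, vinculin, rose by 1.53 (SE 0.18). Nectin3 was called higher (0.76, SE 0.26), but not without melanoma replicate 1 of either genotype (0.65 for Cdkn2a/Braf, 0.49 for Cdkn2a/Braf/Lkb1) or proliferation replicate 1 (0.78) or 2 (0.57). The other 2 that fell, named after their values were seen, were Afdn (-0.70) and Arvcf (-0.61). The core catenins were also looked at after their values were seen: Ctnna1 was called higher (0.45, SE 0.115), but not without proliferation replicate 2 (0.41), and turned to -0.10 with quantile normalization and -0.15 with a common interquartile range. Ctnnb1 differed by -0.07 (SE 0.13, limma adjusted p = 0.69) and Ctnnd1 by 0.06 (SE 0.11, limma adjusted p = 0.679). Of 16 other cadherins 3 were called higher and 5 lower. Cdh6, a type II cadherin of neural crest and kidney, rose by 2.91 (SE 0.28), Cdh5, the endothelial cadherin, by 2.04 (SE 0.36) and Cdh13, a cadherin anchored by lipid, by 1.72 (SE 0.24). The 5 lower were Cdh4 (-0.72, SE 0.14) and Cdh15 (-0.58, SE 0.11) and, named after their values were seen, Cdh24 (-0.44), Cdh16 (-0.43) and Cdh20 (-0.35). The Cdh16 call ended without proliferation replicate 1 (-0.40) or 2 (-0.395), and the Cdh20 call in 5 of the 7 cases of leaving out 1 array (-0.35 to -0.299). Endothelial markers, which include Cdh5, were called higher for 5 of 9, where 20.3% of all genes were, and their part was not tested.

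**Figure D3:**
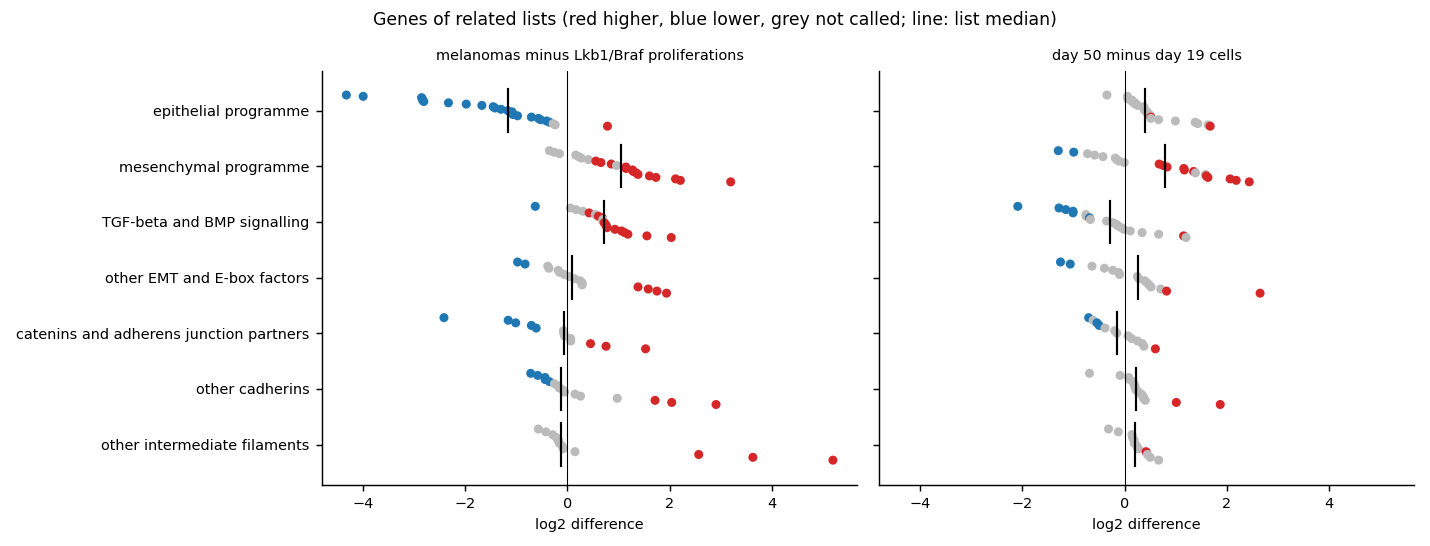
Log2 difference of each gene (points) of 7 related lists in the melanomas against the proliferations (left) and at day 50 against day 19 (right), red where called higher, blue where called lower, grey where not called, with the list median as a line. In the left panel 22 of 25 epithelial genes are lower and 14 of 22 mesenchymal genes higher; in the right panel the 2 epithelial calls are both higher.

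MicroRNAs of the miR-200 family and miR-205 silence Zeb1 and Zeb2, and their precursor probe sets were looked at after the values of the other genes had been seen. The mature forms are shown 5′ to 3′ from the RefSeq table (GRCm38.p6), with the seed (bases 2 to 8) in capitals. miR-200b-3p and miR-200c-3p share the seed AAUACUG, miR-141-3p and miR-200a-3p share AACACUG, and miR-205-5p has CCUUCAU.
miR-200b-3p, chr4:156055685-156055706, minus strand: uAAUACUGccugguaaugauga
miR-200c-3p, chr6:124718324-124718346, minus strand: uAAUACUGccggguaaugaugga
miR-141-3p, chr6:124717917-124717938, minus strand: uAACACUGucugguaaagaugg
miR-200a-3p, chr4:156054911-156054932, minus strand: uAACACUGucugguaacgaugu
miR-205-5p, chr1:193507503-193507524, minus strand: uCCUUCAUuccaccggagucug
The probe sets read a precursor or host transcript and not the mature RNA, and all are dim, between 3.88 and 6.42 where array medians were 6.31 to 6.57.

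Mir205 was at 5.87, 6.05 and 5.58 in the proliferations and at 4.33, 4.72, 4.11 and 4.56 in the melanomas, lower, with a difference of -1.41 (SE 0.18, limma adjusted p = 3e-04). Mir200c was at 6.42, 6.34 and 6.42 against 5.83, 5.48, 5.39 and 5.42, lower, with a difference of -0.86 (SE 0.12, limma adjusted p = 0.000409). Neither pair of groups overlapped. Mir200b was lower, with a difference of -0.75 (SE 0.13). Mir141 was called lower (-0.32, SE 0.10), but in 4 of the 7 cases of leaving out 1 array it was not (-0.31 to -0.25), and with a common interquartile range it turned to 0.35. Mir200a differed by -0.12 (SE 0.15, limma adjusted p = 0.568). Epithelial cells express these precursors, the keratinocyte sum was lower in the melanomas, and its part was not tested.

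**Figure D4:**
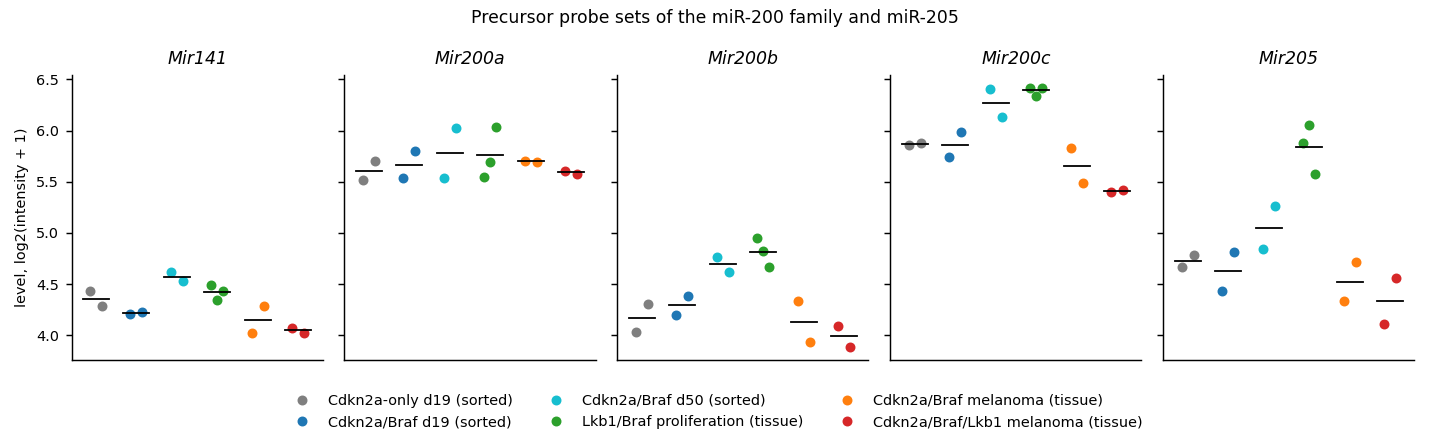
Level, log2(intensity + 1), of 5 miRNA precursor probe sets on each array (points) with group means (bars). The group means of Mir205 and Mir200c are highest in the proliferations; the 5 panels share 1 vertical axis.

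Cdkn2a/Braf cells after growth arrest (day 50) had more Cdh1 and Snai1 and less Snai2 than those at day 19. Of the 10 genes 3 were called, 2 higher and 1 lower, where 25.6% of all genes were called, 11.1% higher and 14.5% lower, so the share is near the background. Cdh1 was at 9.70 and 9.87 at day 50 and at 8.24 and 7.88 at day 19, without overlap, a rise of 1.73 (SE 0.50, 3.31-fold, limma adjusted p = 0.0331). Leaving out any 1 of these 4 arrays ended the call, with adjusted p between 0.0566 and 0.141 and a difference between 1.55 and 1.90. The keratinocyte sum was 12722 to 17073 at day 50 against 3159 to 3464 at day 19 with 4 of 13 markers called higher, and its part was not tested. Cdh1 in the proliferations minus that at day 50 was 0.06 (SE 0.46, limma adjusted p = 0.94), which was not called.

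Snai2 was at 7.47 and 8.16 at day 50 and at 9.03 and 9.32 at day 19, so it fell by 1.36 (SE 0.26, limma adjusted p = 0.00554), with the lowest level of all groups at day 50. The call held without each of the 4 arrays and ended with quantile normalization (-0.88, limma adjusted p = 0.0518), with the 4 compared arrays alone (limma adjusted p = 0.111) and, at 0.05, with the 6 sorted arrays. Snai1 was at 7.25 and 7.07 at day 50 and at 6.61 and 6.64 at day 19, a rise of 0.54 (SE 0.15, limma adjusted p = 0.0305) that passed in 8 of 15 alternatives and ended without either day 19 array or without day 50 replicate 1 (adjusted p 0.102 to 0.13). Vim was at 12.06 and 12 against 11.20 and 11.81, a difference of 0.53 (SE 0.19, limma adjusted p = 0.0665). It was called without day 19 replicate 2 (0.83) and with a common interquartile range (2.07). Zeb2 differed by -0.25 (limma adjusted p = 0.222) and turned to 0.54 (limma adjusted p = 0.0177) with that scaling. Cdh2, Cdh3, Cdh11, Zeb1 and Twist1 were not called, with differences from -0.38 for Cdh11 to 0.63 for Cdh2.

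In the same comparison the related lists were mixed, and many calls rested on single arrays. Of 33 called genes of these lists, 12 were also called without each of the 4 arrays in turn. Of 25 epithelial genes 2 were called higher, Epcam (1.68, SE 0.53) and Cldn3 (0.51, SE 0.13), where 11.1% of all genes were, with a median of 0.40. Both calls ended without either day 19 array. The Epcam call also ended without day 50 replicate 1 (1.06) and the Cldn3 call without day 50 replicate 2 (0.47). The number of epithelial genes called changed with the array left out.

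Of 22 mesenchymal genes 11 rose and 2 fell at day 50, with a median of 0.79, where 11.1% of all genes were called higher. Those that rose were led by Tgfbi (2.44, SE 0.20), Thy1 (2.19, SE 0.31) and Postn (2.07, SE 0.31), which are matrix and fibroblast surface genes, and these 3 were called without each array too. The fibroblast sum went from at most 1359 to at least 4576, and its part was not tested. The count higher was 7 without day 19 replicate 1 or with array weights, 6 with the sorted arrays alone and 2 with the 4 compared arrays alone. The 2 called lower, named after their values were seen, were Prrx1 (-1.30, SE 0.27) and Cd44 (-0.99, SE 0.25). Prrx1 was not called without day 19 replicate 2 (-1.21), and Cd44 not without either day 19 array (-0.983 and -1.005) or day 50 replicate 1 (-0.62); without day 50 replicate 2 the list had 4 called lower.

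Of 20 TGF-beta and BMP genes 6 were called lower at day 50, where 14.5% of all genes were, and 4 to 7 on leaving out each array. The count was 3 with quantile normalization, 2 with the sorted arrays alone and 1 with the 4 compared arrays alone. Bmp7 (-2.09, SE 0.25), Skil (-1.28, SE 0.24) and the receptor Bmpr2 (-1.01, SE 0.20) kept the call without each array, although Bmpr2 turned to 0.07 with a common interquartile range and Skil was at -0.84 without day 50 replicate 2. Smad7 (-1.15, SE 0.26) lost it without day 19 replicate 1 (-0.99) and was at -0.66 without day 50 replicate 2. Ltbp1 was at 7.996 and 6.68 at day 50 and at 6.03 and 6.33 at day 19, called higher (1.16, SE 0.38) in 5 of 15 alternatives. Without day 50 replicate 1 it was 0.50 (limma adjusted p = 0.233) and without either day 19 array 1.00 and 1.31, none of them called.

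Among the other EMT and E-box factors the dominant negative helix-loop-helix gene Id3 fell (-1.25, SE 0.25), also without each array. Id2, of the same kind, was called lower (-1.06, SE 0.32), and only without day 50 replicate 1 (-1.72) did that call remain; without replicate 2 it was -0.41. Foxc2 was at 10.94 and 8.44 at day 50 and at 7.62 and 6.46 at day 19, called higher (2.65, SE 0.64). Without day 50 replicate 1 the difference was 1.41 (limma adjusted p = 0.0248), and without day 19 replicate 2 it was not called (2.07, limma adjusted p = 0.106). The Sox9 call (0.82, SE 0.23) ended without either day 19 array (0.92 and 0.73) or day 50 replicate 1 (0.65).

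Among the catenins and partners Pkp4 was called lower (-0.70), but not without day 19 replicate 1 (-0.65), and Nectin4 higher (0.60), but not without day 19 replicate 2 (0.48). Ctnna1 (-0.54) and Ctnnd1 (-0.50) were called lower, but not without either day 19 array or day 50 replicate 1 (-0.55 to -0.46 and -0.58 to -0.39), and turned to 0.44 and 0.38 with a common interquartile range. Of the other cadherins Cdh5 was at 9.54 and 7.92 at day 50 and at 6.90 and 6.80 at day 19, called higher (1.87, SE 0.47). Cdh13 was at 7.99 and 7.01 against 6.68 and 6.30, also called higher (1.01, SE 0.31). Without day 50 replicate 1, the array with the endothelial sum of 3913, the differences were 1.06 for Cdh5 (limma adjusted p = 0.0626) and 0.52 for Cdh13 (limma adjusted p = 0.189), and without either day 19 array both calls ended too (1.92 and 1.82, 1.201 and 0.826). Of the 9 endothelial markers, Cdh5 included, 8 were called higher, where 11.1% of all genes were, and their part was not tested.

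Cdkn2a/Braf melanoma was next set against Cdkn2a/Braf cells at day 19, a comparison in which sorted cells against tissue and stage cannot be told apart. Of the 10 genes 7 were called, 6 higher and 1 lower, where 12.6% of all genes were called, 7.17% higher and 5.46% lower. Cdh11 was higher by 4.41 (SE 0.33, 21.2-fold, limma adjusted p = 1.93e-05) and Twist1, at 5.91 and 6.16 in the cells and 9.11 and 9.05 in the tissue, by 3.05 (SE 0.22, 8.26-fold, limma adjusted p = 1.69e-05). Cdh2 was at 6.74 and 6.72 in the cells and was higher in the tissue by 2.24 (SE 0.36), and Zeb1, at 8.31 and 8.53, by 1.36 (SE 0.24). Cdh3 was lower, with a difference of -3.84 (SE 0.17, 14.3-fold, limma adjusted p = 1.14e-06). These 5 calls held in 14 of 14 alternatives each. Vim (0.81, SE 0.19) and Snai1 (0.60, SE 0.15) were called higher, in 10 and 7 of 14 alternatives. The Snai1 call ended without any 1 of the 4 arrays (limma adjusted p 0.0929 to 0.142). The Vim call ended without day 19 replicate 1 (0.51, limma adjusted p = 0.154) and without each melanoma array (0.0837 and 0.0865). Cdh1 differed by -1.05 (SE 0.50, limma adjusted p = 0.253), Snai2 by 0.05 and Zeb2 by -0.12 (SE 0.15), none of them called. The fibroblast sum was 10650 to 11588 in the tissue and 1258 to 1359 in the cells, the macrophage sum 5206 to 5704 and 652 to 1826, and their part was not tested.

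The Lkb1/Braf proliferations, against arrested Cdkn2a/Braf cells at day 50, differ from them in genotype, stage and material, which cannot be told apart. Cdh11 (2.40, SE 0.30), Twist1 (1.33, SE 0.20) and Snai2 (0.90, SE 0.24, limma adjusted p = 0.0275) were called higher and Cdh2 (-1.61, SE 0.33) and Cdh3 (-1.45, SE 0.16) lower, 5 of 10, where 18.3% of all genes were called, 9.11% higher and 9.20% lower. The Cdh2 level in the proliferations, 5.75 ± 0.22 (SD, n = 3), was the lowest of all groups and did not overlap its neighbour, the Cdkn2a-only cells at 6.61 ± 0.75 (SD, n = 2). The Snai2 call ended in 6 of 15 alternatives, among them without day 50 replicate 1 (0.55, limma adjusted p = 0.145) and without proliferation replicate 1 (0.85) or 3 (0.81). The 2 comparisons with the proliferations share those 3 arrays, and the 2 comparisons with day 50 or day 19 Cdkn2a/Braf cells share arrays with the arrest comparison.

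Loss of Lkb1 on top of Cdkn2a/Braf in melanoma called none of the 10 genes with limma, where 2.56% of all genes were called, 1.83% higher and 0.732% lower. By unadjusted p under 0.05, 2 of the 10 passed, Snai1 and Zeb1, against 19.2% of all genes. Zeb1 was at 9.42 and 8.69 with Lkb1 loss and 9.88 and 9.68 without, a difference of -0.73 (SE 0.24, limma adjusted p = 0.141) that was called without Cdkn2a/Braf/Lkb1 replicate 1 (-1.09, limma adjusted p = 0.0445) and was -0.36 without replicate 2 (limma adjusted p = 0.464). Without a Cdkn2a/Braf array it was -0.62 or -0.83, neither called. Snai1 differed by 0.36 (SE 0.15, limma adjusted p = 0.24). The SE of the other differences ran from 0.15 for Zeb2 to 0.50 for Cdh1.

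Of 16 other cadherins 2 were called lower with Lkb1 loss and 14 were not called, where 0.732% of all genes were called lower. Cdh19, a cadherin of Schwann cells and neural crest, was at 7.71 and 10.29 in Cdkn2a/Braf melanomas and at 4.34 and 3.72 in Cdkn2a/Braf/Lkb1 melanomas. It was lower with Lkb1 loss, with a difference of -4.97 (SE 0.70, limma adjusted p = 0.00635). On the sorted melanocyte arrays Cdh19 lay between 7.59 and 9.50, and in the proliferations between 5.38 and 5.76. Cdh20 was called lower (-0.71, SE 0.15), but not without any 1 of the 4 arrays (-0.75 to -0.66). The 7 measured Schwann markers, which include Cdh19, summed to 877 and 3251 in Cdkn2a/Braf melanomas and 1144 to 1351 with Lkb1 loss, and the part of Schwann cells was not tested. Of all genes 1.83% were called higher with Lkb1 loss, the share to set beside the counts that follow. Of 22 mesenchymal genes 4 rose, Tnc (2.10, SE 0.26), Lox (1.73, SE 0.27), Acta2 (1.56, SE 0.25) and Col1a1 (1.39, SE 0.17). Tnc and Col1a1 were also called without each array. The Lox call ended without replicate 2 of either genotype (1.64 for Cdkn2a/Braf, 1.60 for Cdkn2a/Braf/Lkb1) and the Acta2 call without Cdkn2a/Braf replicate 2 (1.65). The pericyte and smooth muscle sum, which includes Acta2, was 1735 to 2307 with Lkb1 loss and 1284 to 1327 without, with 2 of 7 markers called higher. The macrophage sum was 9632 to 12161 against 5206 to 5704, with 1 of 11 called higher, and the fibroblast sum, which includes Col1a1, 10244 to 16427 against 10650 to 11588, also with 1 of 11. The part of these cells was not tested. In the TGF-beta list Bmp7 (1.21, SE 0.25) and Tgfb1 (0.80, SE 0.18) were called higher, neither of them without any 1 of the 4 arrays (1.06 to 1.37 and 0.72 to 0.89).

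The Braf allele at day 19 called none of the 10 genes with limma, where 0.291% of all genes were called, 0.236% higher and 0.0552% lower, and 3 of the 10 had an unadjusted p under 0.05, against 7.25% of all genes. These 3 were Vim, Cdh3 and Twist1. Vim was at 11.20 and 11.81 with the allele and at 10.35 and 10.67 without, a difference of 0.99 (SE 0.19, limma adjusted p = 0.0787) that was called with array weights and without Cdkn2a/Braf replicate 1 (1.30, limma adjusted p = 0.0302). Without Cdkn2a/Braf replicate 2 it was 0.69 (limma adjusted p = 0.53), and without a Cdkn2a-only array 0.84 or 1.15, neither called. The macrophage sum was 652 and 1826 in Cdkn2a/Braf cells and 431 and 1096 in Cdkn2a-only cells, the higher sum in the replicate with more Vim each time, and its part was not tested. Cdh3 differed by -0.79 (SE 0.17, limma adjusted p = 0.133), with no overlap, and was called with array weights only (limma adjusted p = 0.0479). Twist1 differed by 0.52 (SE 0.22, limma adjusted p = 0.664). The Vim level in Cdkn2a-only cells was the lowest of the 6 groups, and the genes most like Vim over the 13 arrays were Sh3pxd2a, an invadopodium scaffold (r = 0.982), Tle1 (0.945), Samhd1 (0.944), Ifitm3 (0.944) and Cd9 (0.937).

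**Figure D5:**
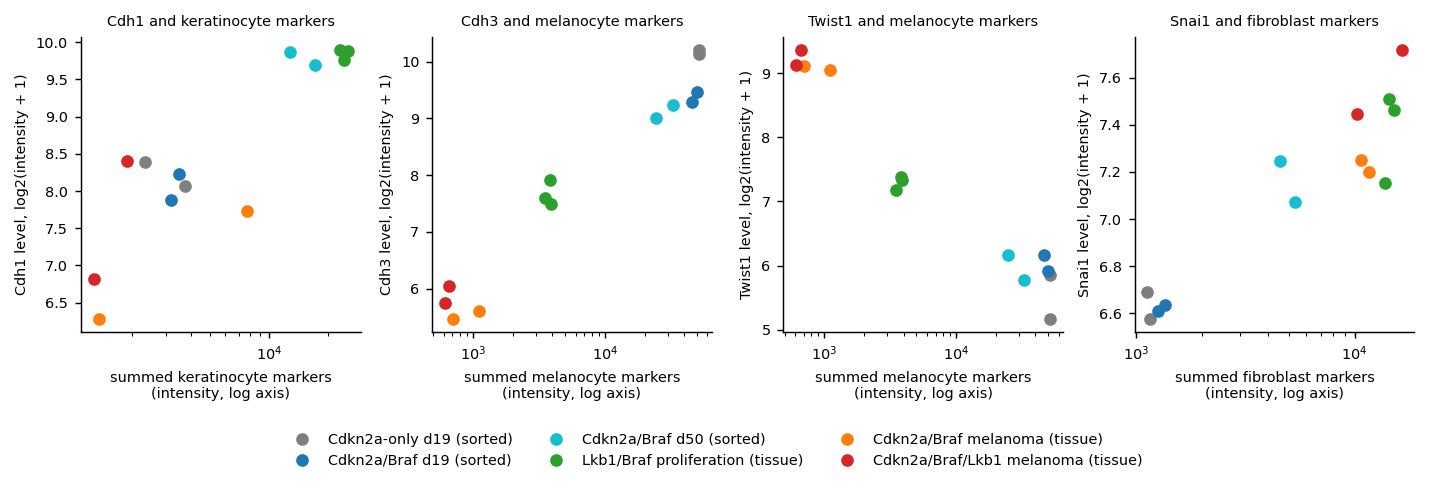
Levels of Cdh1, Cdh3, Twist1 and Snai1, log2(intensity + 1), against the summed intensity of cell type markers on a log axis, 1 point per array, coloured by group. Cdh1 rises with keratinocyte markers, Cdh3 rises and Twist1 falls with melanocyte markers, and Snai1 rises with fibroblast markers; these are relations over 13 arrays from 6 groups, with no test.

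Across the 6 groups the 10 genes differed in how far they moved. Group means spanned 4.79 log2 units for Cdh11, 4.63 for Cdh3, 3.73 for Twist1, 3.22 for Cdh2 and 2.84 for Cdh1, each wider than in at least 95.4% of all genes. They spanned 1.81 for Vim, 1.80 for Snai2, 1.79 for Zeb1, 0.96 for Snai1 and 0.60 for Zeb2. The pooled SD within groups was 0.14 for Zeb2 and Snai1 and 0.59 for Cdh1, whose values were the most scattered. Cdh1 had neighbouring groups that overlapped at 4 of 5 steps in the order of its means, the exception being the step of 1.55 from day 50 down to Cdkn2a-only cells. Cdh2 and Zeb1 had r = 0.787 and Cdh1 and Zeb1 r = -0.747 over the 13 arrays, while Cdh1 and Snai1 had r = 0.092; the arrays share their groups. The genes most like Cdh2 were Wdr44 (r = 0.951), Rab23 (0.935), Ercc6l2 (0.932), Rasa1 (0.926) and Tbx3 (0.914), and those most like Cdh1 were the basal keratin gene Krt5 (0.911), the miRNA gene Mir362 (0.911), Perp (0.905), Prss22 (0.905) and H2al2a (0.902). Those most like Snai2 were Pacrgl (0.921), Ecpas (0.919), 1110032A03Rik (0.919), Bmt2 (0.918) and Mtrex (0.912), and those most like Zeb2 were Grk4 (0.94), Bace1 (0.921), Prkd3 (0.917), Pde7b (0.917) and Vcl (0.907).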

How the data were processed

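Levels came from 13 Affymetrix whole-transcript arrays. The deposited values are probe set intensities on a linear scale, made by the authors with RMA, per the submitters' processing notes; no source used here says how RMA's log2 output became linear. Background in the signal shrinks the differences of dim genes. Of 34760 probe sets, 21640 name 1 gene, 1321 name several (left out) and 11799 are unnamed here. This gave 19937 genes, each by its probe set with the highest mean.

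The log2(intensity + 1) values went into limma 3.58.1 (R 4.3.3), with 6 group means over all 13 arrays (7 residual and 3.08 prior degrees of freedom), two-sided, with Benjamini-Hochberg adjustment. Fits were also run on simulated data with independent noise and, for each gene, the same SD in every group. Unequal spread between groups or arrays was not simulated. Python 3.11.15 prepared tables and plots.

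The members, gene lists, marker lists and comparisons were chosen with earlier results of these data known. The text names the 10 members, the 5 genes most like each, and up to 5 called genes with the greatest difference per list and main comparison; others are marked as named after their values were seen or serve as markers. Alternatives changed the pseudocount, scaling, probe set rule, filter on dim genes, variance model, array weights, replicate block, arrays in the fit, and left out each array; those for gene lists and their genes were added after the data were seen. Each limma p-value sets a difference against the spread between these arrays within groups, estimated over all 6 groups together. For the pooled proliferations that is spread between pools, not between single animals.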

Additional observations from a re-analysis of the deposited data

How the results depend on the processing

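Of 940 refits of a single gene in a single comparison, 841 kept direction and side of the threshold, 44 lost a call, 9 gained one, 4 reversed, and 42 changed sign without being called either way. The 4 reversals were Zeb2 at day 50 against day 19 (0.54) and Zeb2 (-0.11) and Vim (-0.81) in the melanomas against the proliferations with a common interquartile range, and Zeb2 there with quantile normalization (-0.069). At day 50 against day 19 the 3 calls became 5 with a common interquartile range, 1 with array weights, 1 with arrays of the same material and 0 with the compared groups alone, where fewer arrays estimate the spread, and 1 to 2 on leaving out each array. The Braf comparison gave 2 calls with array weights and 0 to 1 on leaving out each array, and the Lkb1 comparison 0 to 1. The proliferations against day 50 gave 3 calls in place of 5 with array weights. Unless stated, the cause was not tested. Replicate numbers did not pair the arrays (correlations of deviations from -0.117 to 0.093 over 30 same-numbered pairs). With the replicate number as a block the counts were 3, 0, 0, 7, 7 and 4 in the order arrest, Braf, Lkb1, melanomas against proliferations, melanoma against day 19 and proliferations against day 50; the block ended the Vim call in the melanomas (0.48, limma adjusted p = 0.0759) and the Snai2 call in the proliferations (0.81, limma adjusted p = 0.117) and changed no other call. Counts over all genes ran from 290 to 5835 (main 5095), 0 to 193 (58), 8 to 794 (510), 4277 to 9522 (7766), 1377 to 3774 (2518) and 1165 to 5655 (3652) in that order. Scaling moved the split of all calls: at day 50, 43.4% were higher and 24.1% after median centring; in the melanomas against the proliferations 52% and, with a common interquartile range, 66.9%, or 65.4% after centring. The Lkb1 comparison had 71.4% and, with a common interquartile range, 59.2%, melanoma against day 19 56.8% and, after centring, 44%, and the proliferations against day 50 49.8% and 34.2% (centring) or 32.9% (interquartile range). The median difference of all genes at day 50 was 0.17, and 0.06 with quantile normalization and -0.05 with a common interquartile range, which also moved it from -0.03 to 0.15 in the melanomas against the proliferations and from -0.04 to -0.15 in melanoma against day 19.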
